A study of Homo sapiens with 8 samples.

Results

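Gene expression in MRC5 human lung fibroblasts was compared between cultures given 10 µM 8-oxoguanine and cultures given its solvent alone, 12 h after the start of exposure. The comparison used 6 of the 8 samples of the series, 3 arrays labelled 8-oxoguanine and 3 labelled mock, all of cells carrying no other treatment or genetic change in the labels. Every probe set other than the array's controls whose mean log2 signal over the 6 arrays was at or above the 40th percentile was taken. This kept 5248 of 8746 probe sets, which stand for 4670 of 7713 named genes, and left out 3498 dim ones below a signal of 93.9. MRC5 is an established line of diploid fetal lung fibroblasts, grown here in serum-containing medium. The labels describe the 3 arrays of a group as technical replicates by extract and do not say that the extracts came from separate cultures, so the errors and p-values below measure the spread between extracts, which may be technical. These arrays carry 12 h in their time and description labels, which were followed here, although the treatment protocol speaks of 6 h throughout. The other 2 samples, 1 treated and 1 mock array at 6 h, were read on another array type and entered no test.

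8-Oxoguanine is the commonest oxidised form of guanine. The DNA glycosylase OGG1 cuts it out of DNA and so releases the free base, which is the compound given here, and the comparison asks what exposure to that base does to the messages of a fibroblast. Among the programmes read below, the integrated stress response works through kinases that phosphorylate the initiation factor eIF2, which slows most translation while favouring that of ATF4, a transcription factor that switches on amino acid synthesis, amino acid transport and the charging of tRNAs. Fibroblasts in culture also divide, secrete and remodel matrix, and answer to transforming growth factor, bone morphogenetic protein and inflammatory signals, and the results are ordered by these roles.

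The MAS5 signals of the 6 arrays had been brought to a common level, with trimmed means of 500.5 on each and medians of 157 to 165. Arrays of one treatment correlated with Pearson's r of 0.979 to 0.989 over the probe sets and arrays of different treatments with 0.964 to 0.975. The actin control message gave a ratio of its 3' to its 5' signal of 0.995, 0.889 and 0.946 in mock and 1.03, 1.07 and 0.999 in treated cells, without overlap, whereas that of GAPDH overlapped, and the part of RNA quality in the results was not tested. All 9 probe sets of the added bacterial messages lys, phe and thr were higher in treated cells, by 0.03 to 0.26 on the log2 scale with a median of 0.22, whereas 9 of the 18 for bioB, bioC, bioD and cre were higher and 9 lower, with a median of 0.0029. Their part in the results was not tested. All 14 fibroblast markers on the array were kept, with a summed signal of 87898 to 103395 on the mock arrays and 87107 to 101689 on the treated arrays, and 4 of them rose and 1 fell. Of 14 epithelial markers 5 were kept and 1 fell, KRT19, while the other kept ones, KRT18, KRT8, MUC1 and SFTPC, did not pass. KRT18 was bright, with means of 3639 in mock and 3943 in treated cells, whereas EPCAM and CDH1 lay under the filter limit. Of 7 smooth muscle markers 5 were kept and 1 fell, SMTN. TAGLN and ACTA2 of that set were bright, with mock means of 8247 and 3501, and did not pass. Of 8 endothelial markers 2 were kept and 1 fell, ENG, while VWF and CDH5 lay under the limit, and of 8 blood cell markers 2 were kept and neither passed, PTPRC and CD14 lying under the limit. In such bulk RNA, fewer cells of a type and less RNA per cell cannot be told apart.

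Of the 5248 probe sets, 695 passed an adjusted p of 0.05 in limma's moderated test, a background of 13.2% against which the counts below are read. By direction, treated cells were higher at 346 (6.59%) and lower at 349 (6.65%). With 1 probe set per gene, the background for the gene counts below was 303 of 4670 genes higher (6.49%) and 310 lower (6.64%). A change of 1.5-fold or more was called at 252 probe sets (4.8%), 127 higher (2.42%) and 125 lower (2.38%), and of 2-fold or more at 52 (0.991%), 25 higher (0.476%) and 27 lower (0.514%). All 3 treated arrays lay on one side of all 3 mock arrays at 1778 probe sets (33.9%). The median log2 fold change over all probe sets was 0.0072, on arrays already scaled to a common level. The number called fell furthest when an extract was left out, to 371 without 8-oxoguanine replicate 1, 383 without 8-oxoguanine replicate 2 and 450 without mock replicate 3. The genes named below kept their call without each of the 6 arrays in turn, unless stated.

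**Figure D1:**
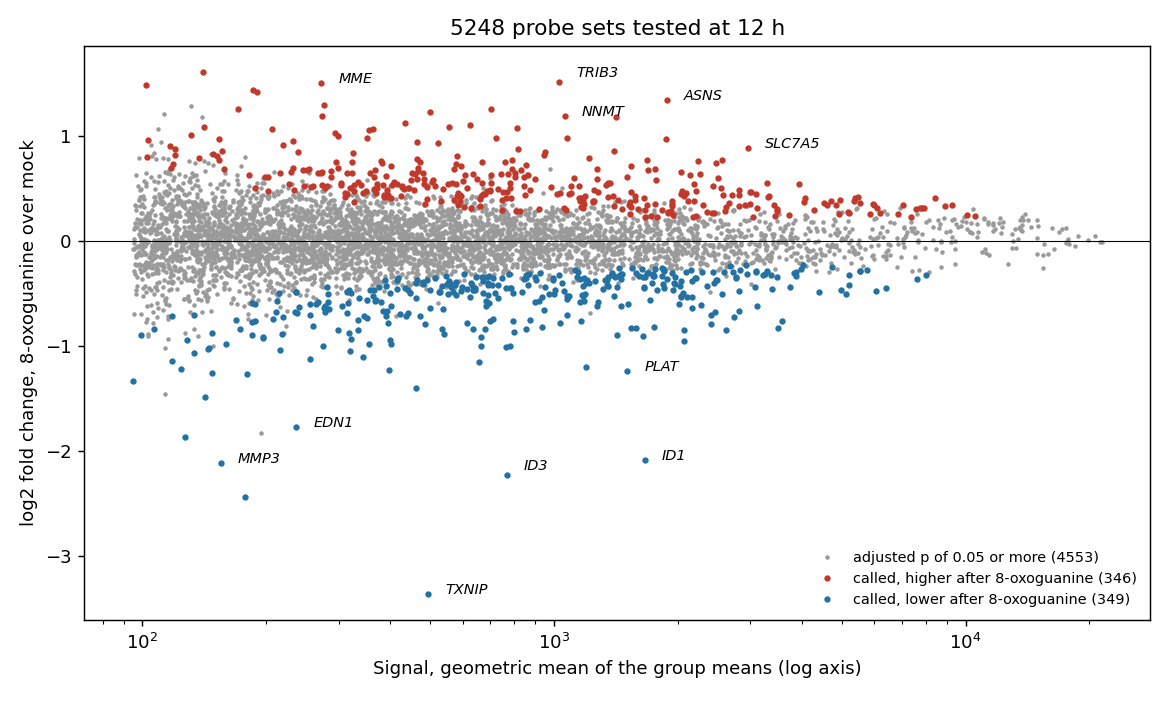
Each point is 1 of the 5248 probe sets, placed by the geometric mean of its group mean signals (log axis) and its log2 fold change of 8-oxoguanine over mock at 12 h. Called probe sets, 346 higher in red and 349 lower in blue, lie on both sides of 0, and TXNIP at -3.36 lies below every other.

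Of 16 kept genes in the list of integrated stress response factors and their feedback, 5 rose, 1 fell and 10 did not pass. TRIB3, a pseudokinase that feeds back on ATF4, had signals of 590.2, 554 and 684 on the mock arrays and 1678, 1759 and 1776 on the treated arrays (log2 fold change 1.52, SE 0.09, adjusted p = 1.48e-05). NUPR1, a small stress-induced chromatin protein, gave 437, 466 and 454 on the mock arrays and 1173, 1115 and 979 on the treated arrays (1.26, SE 0.09, adjusted p = 5.68e-05). ATF3, a stress-induced factor and ATF4 target, gave 248, 265 and 229 on the mock arrays and 519, 508 and 513 on the treated arrays (1.06, SE 0.11, adjusted p = 0.000325). The gap between the groups exceeded the range of either in each of the 3 genes, which were chosen in part for no overlap. CEBPG, a dimer partner of ATF4, rose by 0.75 (SE 0.14). The message of ATF4 itself was bright, with 2857, 3597 and 3297 in mock and 4445, 4240.1 and 5558 in treated cells. The ATF4 log2 fold change was 0.54, SE 0.12, adjusted p = 0.0145, and the adjusted p was 0.0583 in a fit without the intensity trend. The median of the list was 0.24, against 0.0050 over all genes. The count of rises was 5 without any 1 array, and that of falls was 0 without 8-oxoguanine replicate 1, 2 or 3 or mock replicate 1 and 2 without mock replicate 2.

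Among enzymes that make amino acids and one-carbon units some rose and fewer fell. ASNS, asparagine synthetase, had signals of 1149, 1194 and 1185 on the mock arrays and 2853, 2940.2 and 3196 on the treated arrays, the groups lying far apart (log2 fold change 1.35, SE 0.07, adjusted p = 7.18e-06). PSAT1, of the serine synthesis pathway, gave 1332, 1347 and 1324 on the mock arrays and 2672, 2573 and 2611 on the treated arrays (0.97, SE 0.06, adjusted p = 2.76e-05), a ratio of the group levels of 1.96. PHGDH, the first enzyme of that pathway, rose by 0.78 (SE 0.10) and MTHFD2, the mitochondrial folate enzyme, by 0.69 (SE 0.08). TYMS, thymidylate synthase, which spends the same one-carbon units on DNA precursors, went the other way, with 1913, 2026 and 1874 in mock and 1003, 980.4 and 1161 in treated cells (-0.89, SE 0.08, adjusted p = 0.000263). Of 12 kept serine, glycine and folate genes, 4 rose and 2 fell, with a median of 0.21, and without 1 array 3 or 4 rose and 1 or 2 fell, the single fall being counted without 8-oxoguanine replicate 1, 2 or 3 or mock replicate 1. ASS1, argininosuccinate synthase, rose by 0.53 (SE 0.06) and GLUL, glutamine synthetase, by 0.55 (SE 0.09). In the wider list of amino acid synthesis and breakdown 7 of 25 kept genes rose and 2 fell, with a median of 0.16. Leaving out 8-oxoguanine replicate 1 or 2 left 3 rises and no fall, leaving out any 1 mock array left 4 rises, and the replicate block left 4.

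Amino acid transporters were the list with the highest share of rises among the 22 drawn below, 8 of 16 kept genes with none falling, and their median was 0.44. SLC7A5, the light chain of the large neutral amino acid exchanger, had signals of 2209.8, 2047 and 2258 on the mock arrays and 4009, 3907 and 4139.9 on the treated arrays (0.89, SE 0.07, adjusted p = 7.57e-05). Its heavy chain SLC3A2 rose with it, from 674, 728 and 650.3 in mock to 998, 1078 and 1057 in treated cells (0.61, SE 0.08). The groups did not overlap for either chain. The exchangers and importers of glutamine and small neutral amino acids, SLC1A5 (0.69, SE 0.10) and SLC1A4 (0.78, SE 0.10), rose, as did SLC7A2 (0.94, SE 0.10), which carries arginine and lysine, and SLC7A11 (0.45, SE 0.09), the cystine importer. The count was 7 without 8-oxoguanine replicate 1 and 8 without each of the other arrays.

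Cytosolic aminoacyl-tRNA synthetases, which charge tRNAs, had 6 rises and no fall among 16 kept genes and a median of 0.23. WARS1, for tryptophan, which is also induced by interferon, had signals of 1302, 1207 and 1357 on the mock arrays and 2094, 2206 and 2295 on the treated arrays (0.77, SE 0.08, adjusted p = 0.000304). The other 5 rises were at most 1.31-fold, and the count was 1 without 8-oxoguanine replicate 1, 3 without 8-oxoguanine replicate 2, mock replicate 1 or mock replicate 3, and 2 in a fit without the intensity trend. AARS1, for alanine, was one of them, at 0.39, SE 0.08, with an adjusted p of 0.0104 that became 0.0554 without 8-oxoguanine replicate 1. Among 28 kept translation factors 5 rose and none fell, with a median of 0.16. EIF4B (0.38, SE 0.07), EIF3E (0.38, SE 0.07) and EIF3F (0.39, SE 0.06), which help the small ribosomal subunit onto the message, were all bright, the first with 4591, 4769 and 4737 in mock and 6261, 5777 and 6333 in treated cells. The translation factor count was 3 without 8-oxoguanine replicate 1 or 2, without the intensity trend or with the block, and 8 with the stricter filter, and its median was 0.08 without mock replicate 2 and 0.09 with quantile normalization.

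**Figure D2:**
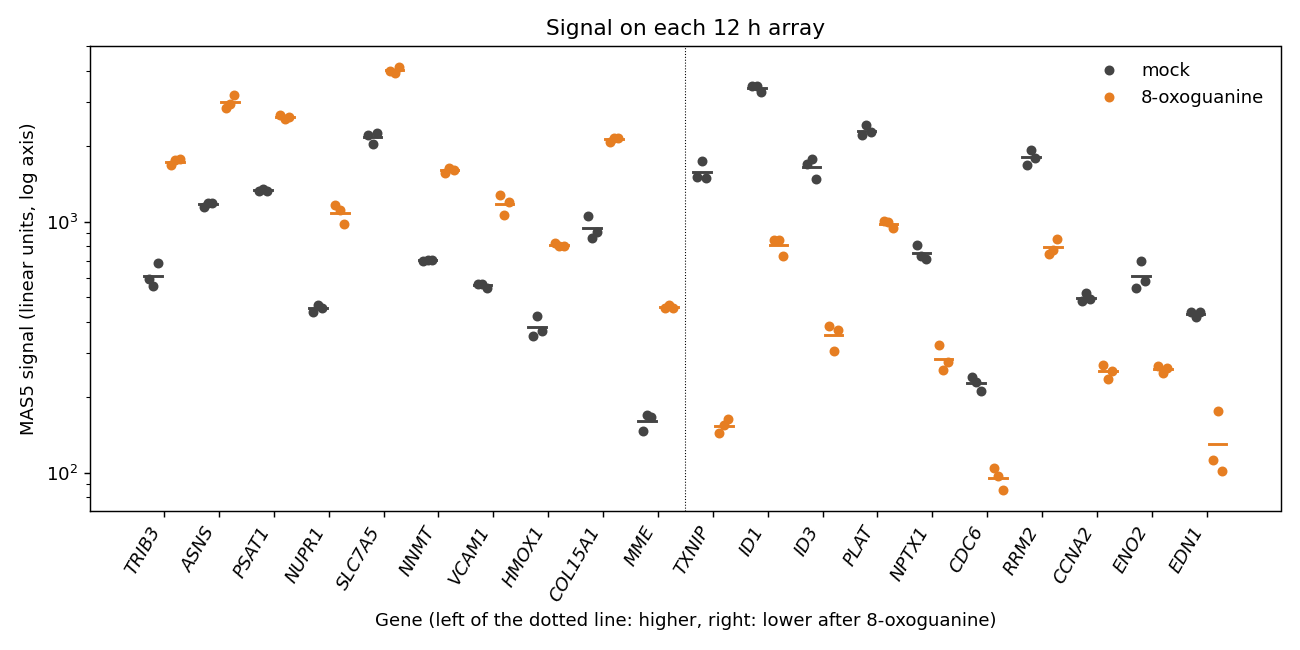
Signals of 20 genes on each of the 6 arrays (log axis), with mock in grey and 8-oxoguanine in orange and a bar at each group mean. The 10 genes on the left lie higher on all 3 treated arrays than on any mock array, MME with 147 to 170.1 against 452 to 466, and the 10 on the right lie lower.

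The stretch of DNA upstream of the start of these genes is shown where it holds the C/EBP-ATF response element to which ATF4 dimers are known to bind, read here as the letters TGATGNAA on either strand. The windows are RefSeq's, from GRCh38.p14, and the 200 bases before the annotated start are printed 5' to 3' in the direction of transcription with the match in capitals, which at AARS1 lies on the reverse strand.
ASNS (chr7:97872409-97872608, minus strand): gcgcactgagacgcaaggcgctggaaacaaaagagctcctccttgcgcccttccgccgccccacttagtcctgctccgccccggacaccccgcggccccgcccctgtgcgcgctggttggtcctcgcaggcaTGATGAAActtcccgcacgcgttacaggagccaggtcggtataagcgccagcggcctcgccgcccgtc
AARS1 (chr16:70289507-70289706, minus strand): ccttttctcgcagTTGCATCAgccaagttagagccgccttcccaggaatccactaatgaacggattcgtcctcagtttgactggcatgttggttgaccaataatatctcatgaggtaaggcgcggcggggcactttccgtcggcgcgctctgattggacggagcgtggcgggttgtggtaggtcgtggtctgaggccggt
The match began 68 bases upstream at ASNS and 187 bases upstream at AARS1. Over the first-listed window of each gene, from 250 bases before to 50 after the start, 8 of 26 genes (30.8%) that rose in the stress, serine, amino acid, transporter and synthetase lists held these letters. So did 4 of 41 (9.76%) of those lists' genes that did not pass. Among all tested genes with a window the share was 77 of 3911 (1.97%), and among all 27305 genes of the RefSeq table it was 3.67%. Among all genes called 1.5-fold or more it was 5 of 94 (5.32%) of the higher and 1 of 88 (1.14%) of the lower. These lists were written with earlier results of these data known, so their share is that of chosen genes. A match is a stretch of letters and not a measured binding site, overlaps with matches to other motifs were not removed, and 3911 of the 4670 tested genes had a window.

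Of 11 kept glucose-responsive and arrestin-family genes 4 fell, none rose and 7 did not pass. TXNIP, which is switched on by glucose through the factor MondoA, binds thioredoxin and limits glucose uptake, had signals of 1511, 1745 and 1498 on the mock arrays and 144, 155 and 164 on the treated arrays, a ratio of treated to mock of 0.10 (-3.36, SE 0.10, adjusted p = 1.65e-07). The glucose response element of this gene is a pair of CACGAG motifs, and both lie in the 200 bases before its start, printed here in the direction of transcription with the motifs in capitals.
TXNIP (chr1:145996580-145996779, minus strand): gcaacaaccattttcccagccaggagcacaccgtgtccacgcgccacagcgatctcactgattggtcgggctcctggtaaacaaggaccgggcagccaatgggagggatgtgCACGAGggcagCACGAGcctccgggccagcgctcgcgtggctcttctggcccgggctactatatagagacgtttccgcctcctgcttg
The motifs begin 88 and 77 bases upstream, and CACGAG occurs on either strand in the windows of 8.62% of tested genes. It was in 13.8% of windows of genes called 1.5-fold or more higher and in 11.4% of those called lower by as much. KLF10, a glucose and TGF-beta induced zinc finger factor, gave 1277, 843 and 1135 in mock and 575, 611 and 427 in treated cells (-1.01, SE 0.17). The median of the list was -0.30, and 2 genes fell without 8-oxoguanine replicate 2 or mock replicate 1, where the median was -0.20 and -0.19.

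Of 17 kept glycolysis and lactate genes 8 fell, 1 rose and 8 did not pass. ENO2, an enolase, had signals of 547, 699 and 584 on the mock arrays and 267, 251 and 261 on the treated arrays (-1.22, SE 0.12, adjusted p = 0.000263). PFKP, a phosphofructokinase, one of the brightest, gave 4188, 5431 and 4439 in mock and 2418, 2701 and 2769 in treated cells (-0.83, SE 0.10). HK2, a hexokinase, and PGK1, phosphoglycerate kinase, fell by 0.54 (SE 0.10) and 0.41 (SE 0.07). The median was -0.29. The falls numbered 4 without 8-oxoguanine replicate 1 or 2 and 5 without mock replicate 2 or 3, and the rise was lost without either of those treated arrays and without mock replicate 1 or 2. Fits without the filter, without the intensity trend and with the replicate block gave 5, 4 and 4 falls.

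Hypoxia response genes, glycolysis enzymes apart, gave 7 falls and 1 rise among 18 kept. Their median was -0.16, and it was -0.05 without mock replicate 1. With the stricter filter 3 rose and the median was -0.10. STC1, a secreted glycoprotein hormone, had signals of 1029, 1207 and 1007 in mock and 638, 554 and 586 in treated cells (-0.87, SE 0.10, adjusted p = 0.000677). BNIP3, a mitophagy receptor, gave 3431, 3666 and 3454 in mock and 2029.9, 1957 and 1889 in treated cells (-0.84, SE 0.07, adjusted p = 8.50e-05). NDRG1 (-0.59, SE 0.10) and P4HA2 (-0.44, SE 0.07), a collagen prolyl hydroxylase subunit, were further falls. The rise was that of EPAS1, which encodes the hypoxia-inducible factor HIF-2 alpha, with 2592, 2129 and 2412 in mock and 3116, 3312 and 3570.4 in treated cells (0.49, SE 0.09). FASN, fatty acid synthase, fell by 0.51 (SE 0.09), and ABCA1, the cholesterol exporter, rose by 0.46 (SE 0.08). Respiratory chain and ATP synthase subunits had 1 gene past the threshold of 55 kept, and their median was -0.04; the rise was not called without 8-oxoguanine replicate 1, 8-oxoguanine replicate 2 or mock replicate 1. There were 2 rises without mock replicate 3 and 2 falls without mock replicate 2.

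Many genes of mitosis fell, and none of them rose. Of 27 kept mitotic kinases, cyclins and parts of the anaphase-promoting complex 15 fell, with a median of -0.55, and the count was 9 without 8-oxoguanine replicate 2. PBK, a mitotic kinase, had signals of 552, 416 and 547 in mock and 219.9, 262 and 221 in treated cells (-1.10, SE 0.14, adjusted p = 0.00126). CDC20, which activates the anaphase-promoting complex, gave 636, 759 and 755 in mock and 378, 385 and 438 in treated cells (-0.84, SE 0.11, adjusted p = 0.00126). PLK1, the polo-like kinase of mitotic entry, gave 329, 380.4 and 319 in mock and 227, 185 and 178 in treated cells (-0.81, SE 0.14, adjusted p = 0.00593). In all 3 genes every treated array lay below every mock array. With the filter at the 60th percentile 1 gene of this list rose.

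Proteins that package, hold and separate chromosomes followed, with 11 falls and no rise among 30 kept genes and a median of -0.39. ZWINT, of the kinetochore, had signals of 1013, 777 and 1157 in mock and 434, 420.2 and 459 in treated cells (-1.15, SE 0.14). PTTG1, or securin, which guards sister chromatid cohesion, gave 2122, 2518 and 2343 in mock and 1355, 1237 and 1363 in treated cells (-0.82, SE 0.08, adjusted p = 0.00036). RACGAP1 (-0.97, SE 0.13) and PRC1 (-0.78, SE 0.11), of the spindle midzone, fell. Outside the list, the kinesins KIF11 (-0.92, SE 0.14) and CENPE (-0.91, SE 0.17) fell too. Cyclin A, encoded by CCNA2 and acting from S phase to early mitosis, was read by 2 kept probe sets, which gave -0.98 (SE 0.11) and -1.12 (SE 0.18), both called.

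Promoters of this class often carry a cell cycle homology region, TTTGAA, through which the DREAM complex is known to hold the genes down outside G2 and mitosis. The 200 bases before the start of a few that fell are printed in the direction of transcription, with each TTTGAA in capitals, or TTCAAA where it lies on the reverse strand.
CDC20 (chr1:43358781-43358980, plus strand): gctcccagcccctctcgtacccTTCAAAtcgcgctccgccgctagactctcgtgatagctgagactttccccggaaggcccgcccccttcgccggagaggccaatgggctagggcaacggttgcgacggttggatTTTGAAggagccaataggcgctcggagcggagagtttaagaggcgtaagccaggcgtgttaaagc
PLK1 (chr16:23678689-23678888, plus strand): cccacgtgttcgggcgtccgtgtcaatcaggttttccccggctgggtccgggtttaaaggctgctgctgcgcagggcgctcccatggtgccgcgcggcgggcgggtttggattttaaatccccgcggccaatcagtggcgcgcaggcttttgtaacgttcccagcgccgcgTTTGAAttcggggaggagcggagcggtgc
PRC1 (chr15:90994536-90994735, minus strand): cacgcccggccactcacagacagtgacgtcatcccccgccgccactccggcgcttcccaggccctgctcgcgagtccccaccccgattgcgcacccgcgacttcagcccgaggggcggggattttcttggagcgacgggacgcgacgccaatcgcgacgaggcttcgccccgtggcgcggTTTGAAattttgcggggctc
The matches began 178 and 65 bases upstream of CDC20, 29 bases upstream of PLK1 and 20 bases upstream of PRC1. The letters occurred in the windows of 14 of 21 genes (66.7%) of the mitosis and chromosome lists that fell. They occurred in 12 of 27 (44.4%) that did not pass, against 9.41% of all tested genes and 15.4% of the RefSeq table. Among all genes called 1.5-fold or more the share was 19 of 88 (21.6%) of the lower and 13 of 94 (13.8%) of the higher. The CCAAT box, CCAAT on either strand, was in 76.2% of the windows of the genes that fell and in 74.1% of those that did not pass, against 36.9% of tested genes. The share that carries these letters is thus high in the lists whether or not a gene passed the test.

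Of 36 kept genes of the fork, the origin and the supply of deoxynucleotides, 7 fell and none rose, but 34 of the 36 had a log2 fold change below 0, and the median was -0.28. MCM2, of the replicative helicase, had signals of 800.1, 894 and 845 in mock and 465, 451 and 513 in treated cells (-0.83, SE 0.09, adjusted p = 0.000553). TK1, thymidine kinase, gave 458, 436 and 457 in mock and 298, 263 and 257 in treated cells (-0.73, SE 0.11), and MCM3 and RRM1, a ribonucleotide reductase subunit, fell by 0.47 (SE 0.09) and 0.49 (SE 0.09). The other reductase subunit, RRM2, and the licensing factor CDC6 are not in the list and fell further. RRM2 went from 1689, 1943 and 1794 in mock to 745, 772 and 855 in treated cells (-1.19, SE 0.09). CDC6 went from 240.4, 231 and 212 in mock to 105, 96.8 and 85.8 in treated cells (-1.25, SE 0.17). Also outside it, GMNN, or geminin, which restrains licensing, fell by 0.93 (SE 0.16). Homologous recombination, Fanconi and checkpoint genes had no call among 20 kept, and their median was -0.08, which turned to 0.13 with the stricter filter; 3 fell when no filter was used.

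Among genes that gate entry to S phase, CCND1, the cyclin D that mitogens induce, had signals of 2940.5, 2318 and 2844 in mock and 1846, 1708 and 1628 in treated cells (-0.64, SE 0.10, adjusted p = 0.00307). CCND3 gave 1156, 1337 and 1079.7 in mock and 770.4, 712 and 776 in treated cells (-0.66, SE 0.09). RBL2, the p130 pocket protein of resting cells, rose from 268, 206 and 276 in mock to 419.7, 521 and 645 in treated cells (1.07, SE 0.17, adjusted p = 0.00401). The groups did not overlap in any of these genes. In all, 3 of 26 kept genes of this list rose and 3 fell, and 1 rose without 8-oxoguanine replicate 1 and 1 without the intensity trend. GAS1, a growth arrest protein of the cell surface, rose from 344, 363 and 275 in mock to 790.3, 749 and 750.1 in treated cells (1.23, SE 0.12).

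**Figure D3:**
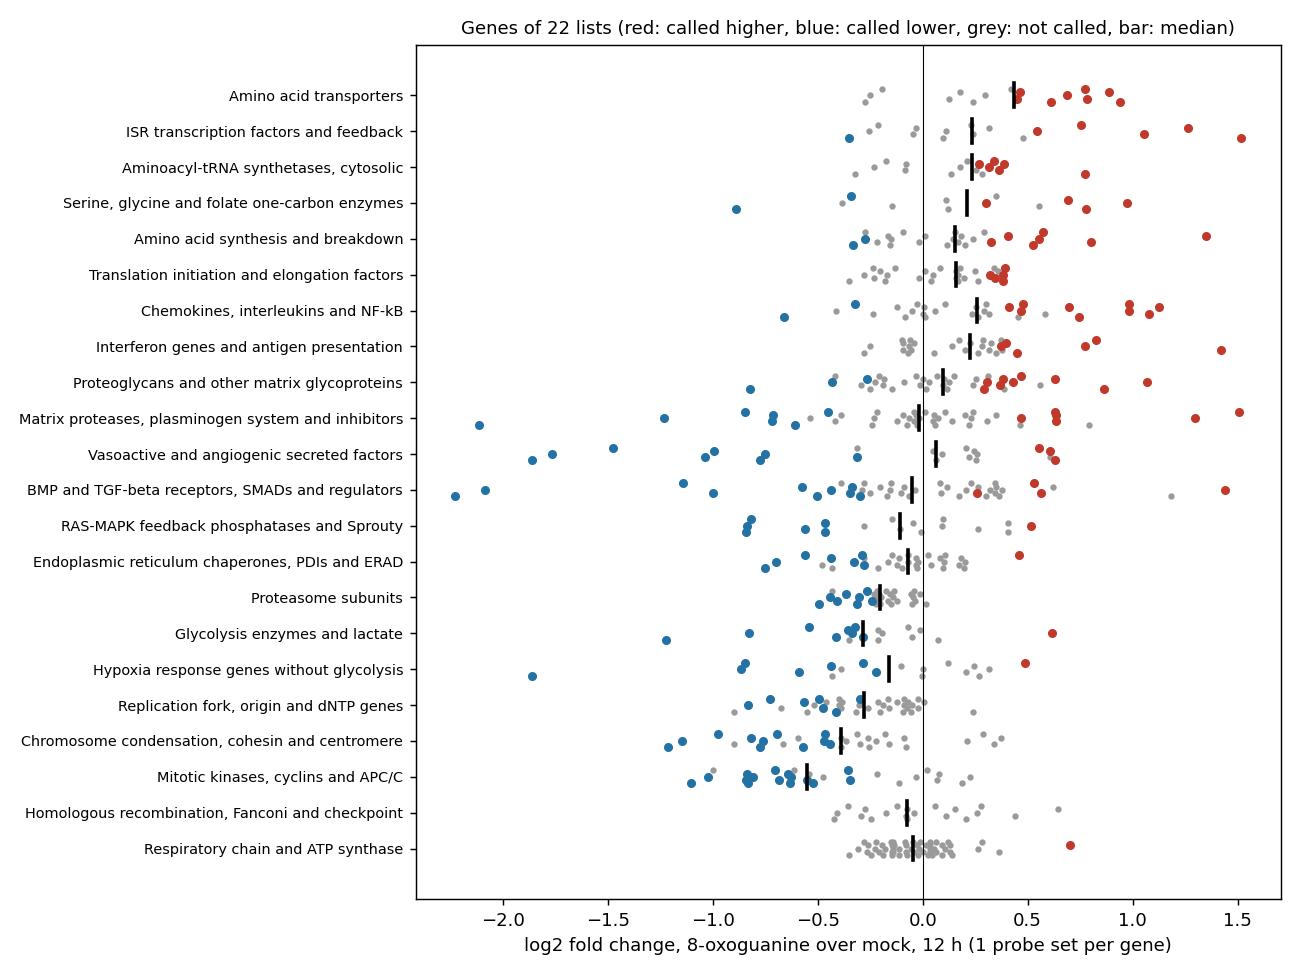
Each point is the log2 fold change of 1 gene (8-oxoguanine over mock, 12 h, 1 probe set per gene) in 22 gene lists, red where called higher, blue where called lower and grey where not called, with a bar at the median. The medians run from 0.44 for amino acid transporters to -0.55 for mitotic kinases, cyclins and APC/C, and 1 of 55 respiratory chain genes is coloured.

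The ID genes, direct targets of bone morphogenetic protein signalling that block helix-loop-helix factors, were among the largest falls. ID1 had signals of 3493, 3492 and 3292 on the mock arrays and 844, 847 and 734 on the treated arrays (-2.09, SE 0.08, adjusted p = 6.46e-07). ID3 gave 1708, 1785 and 1484 on the mock arrays and 386, 306 and 372 on the treated arrays (-2.23, SE 0.11, adjusted p = 6.40e-06). ID2 fell less, from 1215, 1457 and 1581 in mock to 929, 896 and 1015 in treated cells (-0.58, SE 0.10). The inhibitory SMAD7, another target that dampens the pathway, went from 388, 382 and 396 in mock to 189, 201 and 193 in treated cells, a ratio of 0.50 (SE 0.11 on the log2 scale, adjusted p = 0.000606). GDF5, a ligand of that family, rose from 151, 101 and 89.4 in mock to 295, 339.8 and 272 in treated cells (1.44, SE 0.21). Of 42 kept ligands, receptors, SMADs and regulators of the BMP and TGF-beta pathways 10 fell and 4 rose, and the median was -0.05, which turned above 0 without the filter (0.02) and without mock replicate 1. The falls numbered 6 without 8-oxoguanine replicate 2 or mock replicate 3.

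The list of RAS-MAPK feedback phosphatases, Sprouty and further genes gave 6 falls and 1 rise among 17 kept, with a median of -0.11. IER3, an immediate early survival gene, had signals of 2849, 2392 and 3072 in mock and 1585, 1602 and 1438 in treated cells (-0.84, SE 0.10, adjusted p = 0.000762). PHLDA2, counted in this list though neither a phosphatase nor a Sprouty gene, gave 1159.8, 1454 and 1109 in mock and 638, 779 and 686 in treated cells (-0.82, SE 0.12). The MAP kinase phosphatases did not move together, DUSP5 falling by 0.47 (SE 0.09) and DUSP10 rising by 0.52 (SE 0.09). Immediate early and Krüppel-like factors gave 6 rises and 5 falls of 34 kept, with a median of 0.01 that changed sign between settings, and 3 rises without 8-oxoguanine replicate 2. BHLHE40, also a clock repressor, went from 711, 882 and 617 in mock to 391, 371 and 427 in treated cells (-0.88, SE 0.13). SNAI2, or slug, a repressor of mesenchymal cells, fell from 1146, 1111 and 1164 in mock to 659.6, 583 and 676 in treated cells (-0.84, SE 0.08, adjusted p = 0.000352). BTG1, an antiproliferative gene, rose from 1066, 1083 and 969 in mock to 1589, 1617 and 1488 in treated cells (0.59, SE 0.08).

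In the list of small GTPases and other G protein regulators 26 of 33 kept genes did not pass, 3 rose and 4 fell, and the median was -0.06. Over all genes 6.49% rose and 6.64% fell. RGS2, which speeds the shut-off of Gq signalling, had signals of 498, 508 and 533 in mock and 981, 998 and 1062 in treated cells (0.98, SE 0.08, adjusted p = 0.000106), about 2-fold. RHOB, an endosomal and stress-induced small GTPase, went from 2564, 3406 and 2663 in mock to 1633, 1552 and 1277 in treated cells (-0.95, SE 0.12, adjusted p = 0.00138), RHOC fell by 0.50 (SE 0.06) and RIT1, of the RAS branch, by 0.58 (SE 0.12). RGS4 rose by 0.38 (SE 0.06).

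Of 30 kept chemokine, interleukin and NF-kB genes, 9 rose, 2 fell and 19 did not pass. IL1R1, the receptor of interleukin 1, had signals of 274, 324 and 286 in mock and 619, 664 and 639 in treated cells (1.12, SE 0.10, adjusted p = 0.000204). VCAM1, the leukocyte adhesion molecule, gave 566, 567 and 543 in mock and 1279, 1065 and 1205 in treated cells (1.08, SE 0.09, adjusted p = 0.00011). RELB, the subunit of the noncanonical pathway, gave 248, 256 and 244 in mock and 492, 511 and 475 in treated cells (0.98, SE 0.10, adjusted p = 0.00036). The lowest treated array of each lay well above its highest mock array. C1S, a complement protease, rose by 0.98 (SE 0.10), STAT3, which signals for interleukin 6, by 0.74 (SE 0.08) and ICAM1 by 0.70 (SE 0.13). The median of the list was 0.26 (0.14 without mock replicate 3). The falls were 0 without 8-oxoguanine replicate 2 or 3 or mock replicate 1 and 1 without each of the other arrays, and 0 with no filter or no intensity trend. Interferon and antigen presentation genes gave 6 rises and no fall of 29 kept, with a median of 0.23, and 10 rises without mock replicate 2. IFI16, a sensor of DNA, had 693, 718 and 722 in mock and 1153, 1203 and 1436 in treated cells (0.82, SE 0.09, adjusted p = 0.000708). IFITM2 (0.37, SE 0.07), a membrane protein that restricts viruses, and PSME1 (0.45, SE 0.08), a proteasome activator of antigen processing, rose less.

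Of 21 kept vasoactive and angiogenic genes, which act in vessel tone, clotting and prostaglandin synthesis, 8 fell, 3 rose and 10 did not pass. EDN1, which encodes the vasoconstrictor endothelin, had signals of 436, 418 and 436 on the mock arrays and 113, 176 and 102 on the treated arrays (-1.77, SE 0.20, adjusted p = 0.000606). PTGS2, the inducible cyclooxygenase, gave 333, 285 and 306 in mock and 168, 175 and 114 in treated cells (-1.04, SE 0.18). F3, or tissue factor, which starts clotting, gave 979.6, 774 and 1031 in mock and 593, 510.2 and 328 in treated cells (-0.99, SE 0.20). BDKRB1, a receptor of kinins, fell from 495, 550.2 and 508 in mock to 297, 294 and 315 in treated cells (-0.78, SE 0.10, adjusted p = 0.00125). The median of the list was nonetheless 0.06, since 12 of its 21 genes lay above 0. ANGPTL4, an inhibitor of lipoprotein lipase, and SCG2, a granin, fell to treated means under the filter limit, so the size of their changes, -1.86 and -1.48, is uncertain. With the stricter filter 4 genes of this list fell and the median of those kept was 0.24.

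Among genes that build the matrix, COL15A1, a basement membrane collagen, had signals of 1053, 861 and 912 on the mock arrays and 2082, 2157 and 2155 on the treated arrays (1.18, SE 0.09, adjusted p = 5.68e-05). COL13A1, a transmembrane collagen, gave 519, 480.4 and 382 in mock and 245, 209 and 215 in treated cells (-1.04, SE 0.14, adjusted p = 0.00155). PCOLCE, which helps to process procollagen, rose by 0.48 (SE 0.07) and PLOD3, a lysyl hydroxylase, fell by 0.46 (SE 0.07). Of 29 kept collagens and collagen-modifying enzymes 5 fell and 2 rose, with a median of -0.11, though 3 fell without 8-oxoguanine replicate 1 or 2 and 3 without mock replicate 3. The falls numbered 3 without the filter, without the intensity trend or with the block and 8 with quantile normalization. LUM, or lumican, a small leucine-rich proteoglycan, rose from 133, 176 and 121 in mock to 284, 313 and 293 in treated cells (1.07, SE 0.17). THBS2, a thrombospondin, rose from 490.4, 647 and 558 in mock to 927, 794 and 893 in treated cells (0.63, SE 0.11). NID2, a nidogen of basement membranes, fell from 2110.0, 2264 and 1950.0 in mock to 1235, 1083 and 1256 in treated cells (-0.82, SE 0.09, adjusted p = 0.000435). Proteoglycans and other matrix glycoproteins gave 9 rises and 3 falls of 37 kept and a median of 0.10. The rises numbered 3 without 8-oxoguanine replicate 1 and 5 without 8-oxoguanine replicate 2, and 1 gene fell without either of these arrays, mock replicate 1 or 3, the filter or the intensity trend.

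Matrix proteases and the plasminogen system gave 6 rises and 7 falls of 43 kept, with a median of -0.02 that changed sign between settings, and 6 to 8 rises and 7 or 8 falls without any 1 array. PLAT, tissue plasminogen activator, had signals of 2209.8, 2432 and 2291 on the mock arrays and 1007, 996 and 949.9 on the treated arrays (-1.23, SE 0.07, adjusted p = 1.34e-05). PLAU, urokinase, gave 3338, 3742 and 3472 in mock and 2279, 1995 and 2139 in treated cells (-0.72, SE 0.08, adjusted p = 0.000467). The ratio of treated to mock was 0.43 for PLAT and 0.61 for PLAU. MMP3, or stromelysin, went from 328, 319 and 305 in mock to 64.5, 103 and 59.3 in treated cells (-2.11, SE 0.22), its treated mean lying under the filter limit. ANPEP, aminopeptidase N, fell from 426, 375 and 399.9 in mock to 244, 221 and 204 in treated cells (-0.85, SE 0.12). Another membrane peptidase, MME or neprilysin, rose from 147, 170.1 and 167 in mock to 455, 466 and 452 in treated cells (1.51, SE 0.12, adjusted p = 8.50e-05). ADAMTS5, an aggrecan-cutting protease, and CTSK, a collagen-cutting lysosomal cathepsin, rose by 1.30 (SE 0.13) and 0.63 (SE 0.09).

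Of the receptors that hold fibroblasts to matrix, ITGA5, the alpha subunit of the fibronectin receptor, fell from 1744, 1880.1 and 1784 in mock to 1154, 1134 and 1236 in treated cells (-0.62, SE 0.07, adjusted p = 0.000762). ITGA7, of a laminin receptor, rose from 192, 134 and 222 in mock to 388, 409 and 431 in treated cells (1.19, SE 0.18). The list of integrins, cadherins and adhesion genes gave 7 falls and 2 rises of 33 kept and a median of -0.05. Its falls numbered 1 without 8-oxoguanine replicate 2, 2 without 8-oxoguanine replicate 1, 3 without mock replicate 3 and 4 without mock replicate 1, and 2 without the intensity trend, and 1 gene rose without 8-oxoguanine replicate 2. SMTN, or smoothelin, and CNN3, a calponin, of the contractile cytoskeleton fell by 0.76 (SE 0.11) and 0.35 (SE 0.06). Of 48 kept actin and contractile genes 1 rose, 5 fell and 42 did not pass, against 6.49% higher and 6.64% lower over all genes. No rise was called without any 1 treated array or without mock replicate 1 or 3, and the falls numbered 2 without 8-oxoguanine replicate 1. The guidance factor SLIT3 (0.76, SE 0.12) and the Wnt antagonist DKK1 (0.56, SE 0.09) rose, and WNT5B (-0.52, SE 0.09), AMOTL2 (-0.52, SE 0.08), a partner of the Hippo pathway, and the cytokine LIF (-0.58, SE 0.07) fell.

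Several genes of protein folding and disposal fell, while the stress factors above rose. SDF2L1 had signals of 395, 511 and 394 in mock and 236, 267 and 266 in treated cells (-0.75, SE 0.13). MANF gave 1286, 1357 and 1445 in mock and 804, 748 and 984 in treated cells (-0.70, SE 0.11). HYOU1, an endoplasmic reticulum chaperone, gave 1839, 2334 and 2081 in mock and 1325, 1383 and 1515 in treated cells (-0.56, SE 0.10). All are known targets of the unfolded protein response. In the list of endoplasmic reticulum chaperones, protein disulphide isomerases and degradation genes 7 of 33 kept fell and 1 rose, with a median of -0.07, though 3 fell without 8-oxoguanine replicate 1 or the intensity trend, and 4 without 8-oxoguanine replicate 2, without mock replicate 3 or with the block. The rise was not called without 8-oxoguanine replicate 1 or 2 or mock replicate 3. PSMD14, the deubiquitinase of the proteasome lid, fell from 2238, 2298 and 2246 in mock to 1735, 1739 and 1639 in treated cells (-0.41, SE 0.07, adjusted p = 0.00375). Of the 39 genes in the proteasome list 31 were on the array and all of these were kept. A log2 fold change below 0 was found in 30 of the 31, with a median of -0.20. Among the 31, 8 fell and none rose. That count was 1 without 8-oxoguanine replicate 2 and 3 to 5 without each of the others, and 2 without the intensity trend, 4 without the filter, 5 with the block or quantile normalization and 11 with the stricter filter. The proteasome genes PSMB8 and PSME1 were counted with the interferon and antigen presentation genes instead and rose, by 1.42 and 0.45. Whether PSMB8 kept its call without single arrays is not given here. CCT7, of the cytosolic chaperonin, fell by 0.46 (SE 0.08).

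Of 54 kept lysosomal and autophagy genes 7 rose, 2 fell and 45 did not pass, with a median of 0.13. SQSTM1, the autophagy receptor p62, was called by both of its kept probe sets, at 0.45 (SE 0.08) and 0.66 (SE 0.14). GAA, acid alpha-glucosidase, rose by 0.48 (SE 0.09), GLA, alpha-galactosidase, fell by 0.48 (SE 0.09), and MITF, of the factor family that drives lysosomal genes, fell by 0.53 (SE 0.10). Without 8-oxoguanine replicate 1, or without the intensity trend, 4 genes rose, and the median was 0.08 without 8-oxoguanine replicate 3 and 0.07 without mock replicate 3. In the secretory pathway SEC24C, a cargo adaptor of COPII coats, went from 889, 932 and 889.6 in mock to 408, 551 and 579.7 in treated cells (-0.83, SE 0.13). RAB5C, of early endosomes, and KDELR3, which returns chaperones to the endoplasmic reticulum, fell by 0.77 (SE 0.12) and 0.61 (SE 0.09). Of 58 kept genes of this list 2 rose, 5 fell and 51 did not pass, against 6.49% higher and 6.64% lower over all genes. The rises were those of RAB9A (0.56) and RAB13 (0.35), and 1 rise was called without 8-oxoguanine replicate 2 or mock replicate 1 or 3. The falls numbered 3 without 8-oxoguanine replicate 1 or 2, without the intensity trend or with the block.

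OGG1, whose enzyme releases the free base from DNA, was not called, with signals of 156, 144 and 176 on the mock arrays and 111, 170.2 and 178 on the treated arrays (log2 fold change -0.08, SE 0.21, 95% interval -0.55 to 0.40, adjusted p = 0.865). Its groups overlapped, and the estimate ran from -0.20 to 0.14 over the fits that left out 1 array. Of 18 kept base excision repair genes 4 fell and none rose, though 2 fell when a single array was left out, be it 8-oxoguanine replicate 1 or 2 or mock replicate 1 or 3. The count was also 2 without the filter, without the intensity trend and with the stricter filter, and 1 gene rose without mock replicate 2. PCNA, the sliding clamp that replication shares with repair, had 738, 1129 and 885 in mock and 457, 501 and 489 in treated cells (-0.91, SE 0.14), and LIG1, the ligase of replicating DNA, fell by 0.94 (SE 0.18) to a treated mean under the filter limit. HMOX1, heme oxygenase, an NRF2 target, rose from 352, 423 and 369 in mock to 827, 799.6 and 803 in treated cells (1.09, SE 0.10, adjusted p = 0.000187). Of 47 kept thioredoxin, glutathione and peroxide genes 4 rose, 3 fell and 40 did not pass, against 6.49% higher and 6.64% lower over all genes. The falls numbered 5 with median centring or quantile normalization and 6 with the stricter filter. None of 9 kept metallothionein and metal transport genes passed. CYP1B1, a target of the aryl hydrocarbon receptor, rose from 70.5, 53.4 and 59.2 in mock to 181, 153 and 178 in treated cells (1.49, SE 0.22), its mock mean lying under the filter limit. Among p53 targets PLK2 rose from 1160.1, 977 and 978 in mock to 1927, 2025 and 1717 in treated cells (0.87, SE 0.10, adjusted p = 0.000565) and ZMAT3 by 0.64 (SE 0.08). GADD45B fell by 1.06 (SE 0.19) to a treated mean under the limit. Of 22 kept p53 targets 5 rose, 3 fell and 14 did not pass. The rises numbered 3 without 8-oxoguanine replicate 1 or 2, mock replicate 3 or the intensity trend, and 1 gene fell with the stricter filter. NME1 and AMPD2, of nucleotide metabolism, fell by 0.47 (SE 0.08) and 0.48 (SE 0.10).

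Precision rose with brightness, which bears on which genes could be called. In the dimmest of 5 equal groups of probe sets the median SE was 0.22 and 3.71% were called, with no called change under 1.62-fold. In the brightest the median SE was 0.080 and 23.3% were called, down to 1.17-fold. A dim gene that did not pass may therefore have changed by as much as a bright gene that did. Of the 618 genes called with 1 symbol, 12 had at least 2 kept probe sets, which shared 1 sign in 10. Only 3 of the 12 had 2 or more of them called, in the same direction. In the rest a single probe set was called, so opposite calls could not occur.

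**Figure D4:**
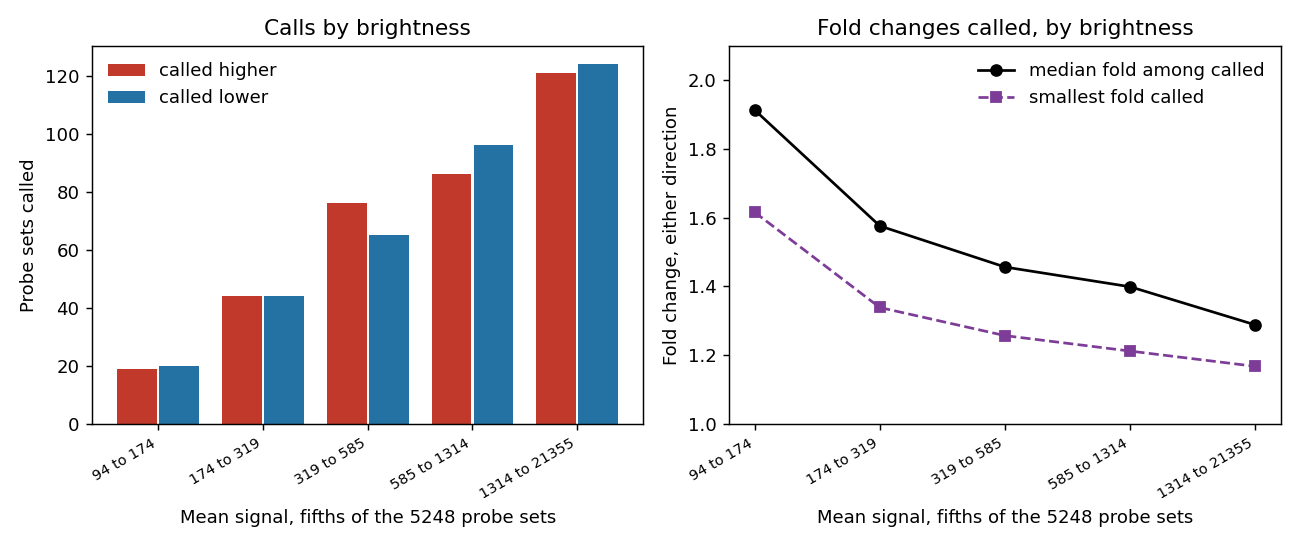
Probe sets called higher and lower (left, bars from 0) and the median and smallest fold change among those called (right), for 5 equal groups of the 5248 probe sets by mean signal. Calls grow from 19 higher and 20 lower in the dimmest group to 121 and 124 in the brightest, while the median fold called falls from 1.91 to 1.29.

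At 6 h, with 1 array of each treatment on another array type and no test, SLC7A5 had a log2 ratio of treated over mock of 0.32, PSAT1 of 0.27, CDC20 of 0.41, PTTG1 of 0.28 and MME of -0.62. After quantile normalization the ratios were 0.21, 0.13, 0.46, 0.19 and -0.54. Beside them stand the 12 h changes of 0.89, 0.97, -0.84, -0.82 and 1.51. Of 274 named genes called at 12 h, 138 had the same sign at 6 h, and 137 after quantile normalization. Time and array type differ together, so the times cannot be told apart from the arrays.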

How the data were processed

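Total RNA of the 6 samples was read on single-colour short-oligonucleotide arrays. The authors deposited 1 intensity per probe set, a linear MAS5 signal per the submitters' processing notes, its version not given in the sources used here, and equal trimmed means show scaling of the arrays to one level. Detection calls and scanner files were not used. Groups followed the treatment and time labels.

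Log2 of the deposited intensity was fitted without further scaling by limma 3.58.1 under R 4.3.3 (lmFit and trended eBayes, two-sided, Benjamini-Hochberg over the 5248 probe sets, threshold 0.05), and every adjusted p is from this fit unless another is named. The number of arrays limits the precision. For gene names, the array's platform annotation was used: of 8746 probe sets it gives 1 symbol to 7840, more than 1 to 388 and no symbol to 518, and those of the first kind were named. Gene counts use the brightest kept probe set per gene. Named genes were the top 40 by size in each direction past the threshold without overlap between groups, up to 6 called genes per list with the largest changes, and OGG1, of which the text describes those it groups by role. Members and lists were chosen with earlier results of these data known, so lists are described by counts and medians without a list test. Tested on simulated data of 5248 probe sets, the fit found 81 of 100 true 2-fold changes, 53 of 100 true 1.5-fold changes and 5 that were false. The simulated noise was independent between probe sets, and a smaller share of them changed than was called here. These rates therefore need not hold for the real arrays. The extract numbers shared by the groups did not pair the arrays (correlations of same-numbered deviations 0.076, -0.15 and -0.050). Differently numbered arrays gave -0.18 to 0.20, the highest being 8-oxoguanine replicate 3 with mock replicate 2. These 2 arrays also had the highest median signals, 165 and 164, and a shared technical pattern was not tested. Alternatives were a constant added before log2, median centring, quantile normalization, no filter, a filter at the 60th percentile, no intensity trend, the replicate block, and leaving out each array. Some human control probe sets are left out.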

Additional observations from a re-analysis of the deposited data

Results flagged for a closer look

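Outside the comparison, a probe set for lys, a bacterial message added to each sample as a control, was 0.26 higher in treated cells on the log2 scale and passed the threshold when limma was fitted with the controls included. It was the 1 of 30 bacterial and phage control probe sets to pass. Every lys, phe and thr probe set, 9 of 9, was higher in treated cells, by 0.03 to 0.26, and the 18 of bioB, bioC, bioD and cre lay on both sides of 0, from -0.39 to 0.45. Of 3 for dap 2 were higher, by up to 1.08 without passing.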

How the results depend on the processing

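The 695 12 h probe sets past the threshold became 704 with a constant added, 682 with median centring, 731 with quantile normalization, 555 with no filter, 727 with the stricter filter and 484 without the intensity trend. Leaving out 1 array gave 371 to 652 calls, 184 to 328 of them higher and 187 to 324 lower; 204 to 254 were 1.5-fold or more and 50 to 58 were 2-fold or more. With the stricter filter 29 probe sets were 2-fold or more, since dim probe sets were no longer tested. As a check on pairing, the replicate block gave 513 calls, but the arrays share only a number. Of 274 named genes past the threshold, 163 stayed past it without each array in turn and 185 in every other alternative that tested them. Among named genes, the sign turned only for OGG1, which was not called; leaving out 1 array moved it from -0.20 to 0.14, being 0.0013 without mock replicate 3. Calls of dim probe sets are limited by signal, and 18 named genes had a group mean under the filter limit.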

Other observations

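Several of the large changes at 12 h belong to genes outside the lists above. NNMT, which methylates nicotinamide, had signals of 697, 706 and 706 on the mock arrays and 1564, 1646 and 1605 on the treated arrays (log2 fold change 1.19, SE 0.07, adjusted p = 1.34e-05). NIBAN1, a stress-induced regulator of translation, rose from 400.2, 442 and 434 in mock to 924, 931 and 897 in treated cells (1.11, SE 0.08, adjusted p = 7.20e-05). OPN3, an opsin expressed outside the eye, rose from 573, 614 and 623 in mock to 1121, 1193 and 1021 in treated cells (0.88, SE 0.09, adjusted p = 0.000325). KCNJ2, an inward rectifier potassium channel, rose from 322, 314 and 369 in mock to 691, 587 and 655 in treated cells (0.95, SE 0.11). GPNMB, a membrane glycoprotein of lysosomes, and RUNX1T1, a transcriptional corepressor, rose by 1.01 and 1.03 (SE 0.12 each). CCK, the peptide hormone cholecystokinin, rose by 0.96 (SE 0.18) and HLX, a homeobox factor, by 0.92 (SE 0.16).

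Falls outside the lists included NPTX1, a secreted pentraxin best known from neurons, with signals of 809, 729.7 and 711 on the mock arrays and 323, 258 and 275 on the treated arrays (-1.40, SE 0.11, adjusted p = 0.0001). COLEC10, a collectin, fell from 1128, 995 and 1181 in mock to 555, 534 and 566 in treated cells (-0.99, SE 0.09, adjusted p = 0.000191). KRT19, a keratin, fell from 277, 283 and 271 in mock to 98.1, 112 and 139 in treated cells (-1.27, SE 0.17, adjusted p = 0.00145). GYS1, muscle glycogen synthase, fell by 0.90 (SE 0.12) and BIRC5, or survivin, which acts in mitosis, by 0.93 (SE 0.13). Within lists not described above, 2 of 46 kept histone and chromatin genes rose, 3 fell and 41 did not pass. The shares over all genes were 6.49% higher and 6.64% lower. H2AC6 and H1-10 rose by 0.69 (SE 0.07) and 0.76 (SE 0.09), and HMGA2, a chromatin architecture protein, fell by 0.37 (SE 0.06). The falls numbered 1 without 8-oxoguanine replicate 1 or mock replicate 3, and 1 without the filter or the intensity trend. Of 52 kept spliceosome genes 2 rose, 5 fell and 45 did not pass. The rises were those of the splicing regulators SRSF5 (0.68, SE 0.08) and SRSF6 (0.40, SE 0.07), and the largest fall was that of TRA2A (-0.64, SE 0.14), whose adjusted p was 0.06395 without 8-oxoguanine replicate 2 and 0.06388 without mock replicate 3. The falls numbered 1 without 8-oxoguanine replicate 1, mock replicate 3 or the intensity trend, 2 without 8-oxoguanine replicate 3, and 3 without 8-oxoguanine replicate 2, mock replicate 1 or the filter.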
